A study of Mus musculus with 8 samples.

Results

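Neuropeptides are short signalling molecules that neurons cut from larger precursor proteins, pack into dense-core vesicles and release alongside a fast transmitter. They act mostly on G-protein-coupled receptors, often on cells at some distance from the release site, so the cell that transcribes a precursor and the cell that transcribes its receptor are usually different. In the cerebral cortex the precursor genes serve as classical labels of GABAergic interneuron classes, whereas many receptors are found on excitatory neurons and glia.

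The genes described here are 42 members taken by symbol from the gene list of the study: 16 peptide precursors, 1 secreted binding protein (Crhbp, which binds corticotropin-releasing hormone) and 25 receptors. All 42 had UMIs (unique molecular identifiers, which count captured RNA molecules) in the kept nuclei. Together they held 320716 of 567369935 UMIs, or 0.057%, among 32285 listed genes. The data are single-nucleus RNA counts of cortex from 8 C57BL/6J mice at postnatal day 25, 4 wild type (WT) and 4 heterozygous for Chd8 (Chd8het), a chromatin remodeller gene, each genotype being represented by 2 male and 2 female libraries. According to the labels, animals were matched in pairs for litter and sex, and no other allele or agent was given. The Chd8 allele is not described in the sources used here. All libraries numbered 1 were single-indexed, and all those numbered 2 dual-indexed. Values by library are given below in the order male 1, male 2, female 1, female 2.

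After filtering, 77890 nuclei were kept, 7503 to 10988 per library, from 69503598 to 98132783 deposited UMIs per library. Chd8 lay at 74.9 to 81.3 CPM (a gene's UMIs scaled to a common total for each library and type) in the WT libraries and at 76.0 to 89.6 CPM in the Chd8het libraries, so its level did not separate the genotypes, and a 3′ count does not tell alleles apart. Nuclei were clustered without any of the 42 genes and named by marker genes that exclude them, so every type name below means resemblance by markers. Named clusters held 63179 nuclei in 23 types, of which 19 entered tests, where no library held fewer than 30 nuclei. Between 19 and 36 barcode sequences were shared by each of the 28 pairs of libraries. Chd8het male 2 stood apart with 731 of the 862 nuclei of 1 unnamed cluster and with 378 L4/5 intratelencephalic nuclei. The cortex samples also held 331 striatal projection neuron-like nuclei, with 0 to 131 per library.

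Sequence just before the start of transcription is shown for 6 members, because the precursors that mark interneuron classes are textbook targets of cyclic AMP signalling through the CRE motif (TGACGTCA, its own reverse complement, with the half-site TGACG). RefSeq promoters on GRCm38.p6 were matched by symbol for 35 of the 42 members, and the 250 bases before each start were searched on both strands. The full motif occurred in 3 members and in 1.55% of 32851 promoters, and the half-site, which every full motif contains, in 17 members and in 17.77% of promoters. Members were counted once per symbol and the background per promoter entry, so these counts are not like for like. The first 3 lines give 30 bases centred on the full motif and the last 3 give the 120 bases before the start with the half-site, all 5′ to 3′ on the gene's strand, with the motif in capitals. A match is a description of letters and was not tied to binding or to any level below.
Sst, chr16:23890874-23890903, minus strand: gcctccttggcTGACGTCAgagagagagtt
Sstr2, chr11:113619258-113619287, plus strand: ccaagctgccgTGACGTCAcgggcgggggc
Cartpt, chr13:99900777-99900806, minus strand: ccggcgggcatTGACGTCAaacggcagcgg
Vip, chr10:5639098-5639217, plus strand: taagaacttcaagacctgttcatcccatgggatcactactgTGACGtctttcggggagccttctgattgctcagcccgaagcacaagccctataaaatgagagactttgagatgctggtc
Cort, chr4:149126764-149126883, minus strand: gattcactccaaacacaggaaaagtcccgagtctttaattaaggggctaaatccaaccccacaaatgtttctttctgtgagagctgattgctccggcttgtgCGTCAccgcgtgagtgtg
Cck, chr9:121495695-121495814, minus strand: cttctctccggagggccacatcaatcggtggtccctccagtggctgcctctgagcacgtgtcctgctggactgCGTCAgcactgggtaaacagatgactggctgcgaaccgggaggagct

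The motif began 48 bases before the RefSeq start of Sst, 58 before that of Sstr2 and 112 before that of Cartpt. Somatostatin and its receptor Sstr2 thus shared the full motif in this window, although their highest types differed. In Vip the half-site began 79 bases before the start. Cort and Cck carried it on the opposite strand, where it reads CGTCA, beginning 18 and 47 bases before the start. The Sst and Cartpt stretches overlap exons of GENCODE M21, whose transcripts start further upstream.

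Sst, Vip and Npy each had their highest level in a different interneuron type, Sst and Vip with no second neuronal source of similar level and Npy with lower levels in others. Sst encodes somatostatin, an inhibitory peptide of dendrite-targeting interneurons (ENSMUSG00000004366, chr16:23889573-23890958). In Sst-like nuclei its level was 663, 242, 668 and 389 CPM in the WT libraries and 629.5, 351, 606 and 219 CPM in the Chd8het libraries. The genotypes overlapped widely, and replicate 1 was higher than replicate 2 in every group. The mean was 471 ± 191 CPM (SD over 8 libraries), and 73.8% of 1797 nuclei had an Sst UMI. Vip encodes vasoactive intestinal peptide, made by interneurons that mainly inhibit other interneurons (ENSMUSG00000019772, chr10:5639218-5647617). In Vip/Sncg-like nuclei it counted 1484, 539, 1276 and 708 CPM in WT and 1468, 790.2, 1393 and 621 CPM in Chd8het. Again the genotypes overlapped and both index types stood apart. The mean was 1035 ± 407 CPM, and 78.8% of 1143 nuclei had a UMI.

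Npy, the precursor of neuropeptide Y (ENSMUSG00000029819, chr6:49822710-49829507), was highest in Lamp5-like nuclei, a group that includes neurogliaform cells. There it lay at 797, 279.6, 801 and 386 CPM in WT and at 644, 449.8, 860.1 and 376 CPM in Chd8het. The mean was 574 ± 228 CPM, against 152 ± 59.3 in Sst-like and 98.7 ± 50.3 in Vip/Sncg-like nuclei. Of the 883 Lamp5-like nuclei 75.7% had an Npy UMI, of the Sst-like 40.6% and of the Vip/Sncg-like 24.6%. Pvalb-like nuclei held 0.248 Npy UMIs each, against 0.101 to 0.134 in 7 glial and vascular types.

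**Figure D1:**
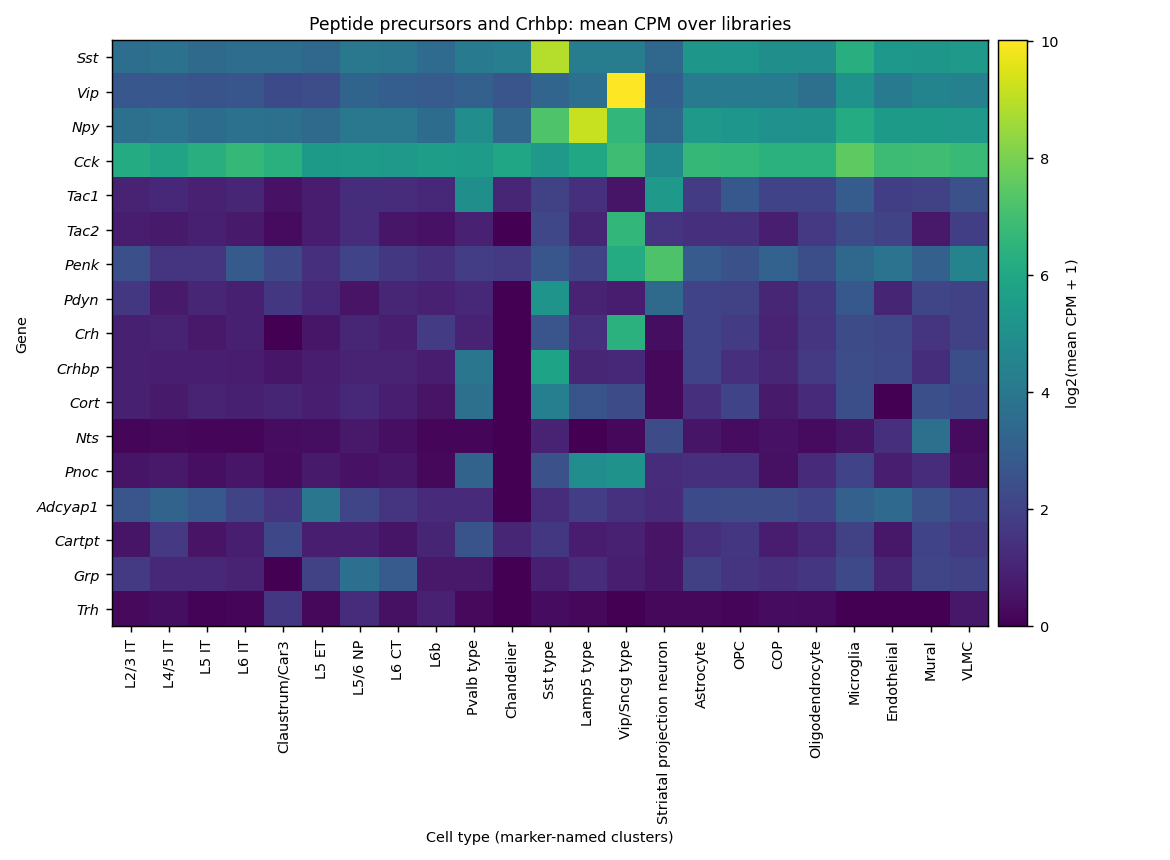
Mean CPM of the 16 precursors and Crhbp (rows) in 23 marker-named types (columns), coloured by log2(mean CPM + 1), where the mean is over the libraries that hold the type. Sst, Vip and Npy stand out in Sst-like, Vip/Sncg-like and Lamp5-like nuclei, and Sst, Npy and Cck also form an even band over the glial and vascular columns.

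A low and even level of the abundant precursors was found in every type, a floor of the kind that RNA free in the suspension gives; its part in any result was not tested. Sst counted 0.101 to 0.122 UMIs per nucleus in all 7 tested glial and vascular types, and L2/3 intratelencephalic (IT) neurons had 0.116, against 3.76 in Sst-like nuclei. Vip counted 0.041 to 0.065 in the same 7 types against 6.50 in Vip/Sncg-like nuclei, and Npy 0.101 to 0.134 against 3.80 in Lamp5-like nuclei. Over these 7 types the UMIs per nucleus of each precursor were similar. CPM divides by total UMIs, so for such similar numbers it was higher where nuclei held little RNA. Microglia had a median of 1433 UMIs per nucleus and Sst-like nuclei 7443, and 10.1% of microglia had an Sst UMI. With every nucleus thinned to 2000 UMIs, which left out 3131 of 3642 microglia and 16 Sst-like nuclei, the shares were 10.4% in microglia and 43.6% in Sst-like nuclei.

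Cck, the precursor of cholecystokinin, ranked differently by CPM and by UMIs per nucleus. By CPM its highest tested type was microglia, at 184 ± 71.8 CPM, with 120 ± 37.6 in Vip/Sncg-like nuclei. By UMIs per nucleus L6 IT neurons led with 0.994, Vip/Sncg-like nuclei had 0.767 and L2/3 IT neurons 0.714, whereas the 7 glial and vascular types lay between 0.279 and 0.327. Per nucleus, microglial Cck lay within the range of the non-neuronal types. The ratio of Sst to Cck UMIs was also alike in those 7 types, 0.346 to 0.425. Sstr3, a somatostatin receptor, likewise ranked highest in microglia by CPM (7.01 ± 4.73, 40 UMIs in all) but in L5 IT neurons by UMIs per nucleus.

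**Figure D2:**
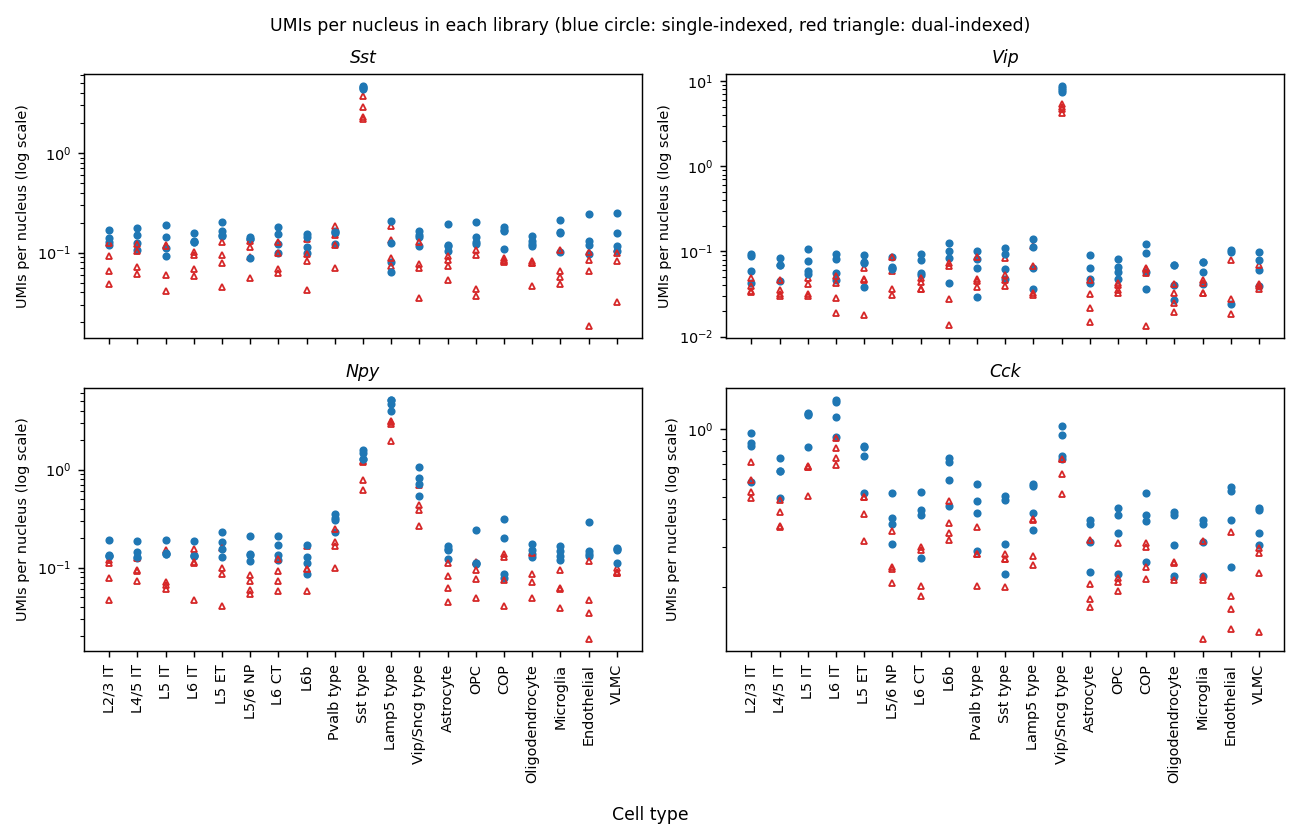
UMIs per nucleus (log axis) of Sst, Vip, Npy and Cck in the 19 tested types, with 1 point per library; a library with no UMI is not drawn. Sst stands out in Sst-like and Vip in Vip/Sncg-like nuclei. Npy is highest in Lamp5-like, Sst-like and Vip/Sncg-like nuclei and lies at 0.248 UMIs per nucleus in Pvalb-like nuclei, and Cck is high in intratelencephalic and Vip/Sncg-like nuclei.

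The remaining precursors had narrower or weaker sources. Tac2 (neurokinin B), Crh (corticotropin-releasing hormone), Penk (enkephalins) and Pnoc (nociceptin) were all highest in Vip/Sncg-like nuclei among the types found in all 8 libraries. Tac2 ranged over libraries from 40.9 to 159 CPM with 710 UMIs in all, Crh from 37.6 to 142 with 594, Penk from 28.8 to 102 with 505 and Pnoc from 16.6 to 48.8 with 240. For Tac2 the next type was microglia at 4.06 CPM, and for Crh Sst-like nuclei at 5.31 CPM. Pnoc was not confined in this way, since Lamp5-like nuclei had 29.0 ± 9.39 CPM, within the spread of the Vip/Sncg-like 33.5 ± 11.9. Penk was higher in the striatal-like nuclei, at 149 ± 44.5 CPM in the libraries that held them, and was 21.6 ± 8.54 CPM in vascular leptomeningeal (VLMC) nuclei. A long noncoding gene, A830012C17Rik, overlaps Penk on the opposite strand.

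Sst-like nuclei were the leading source of Pdyn (dynorphins), Cort (cortistatin, a relative of somatostatin) and the binding protein Crhbp. Pdyn ranged from 20.6 to 58.5 CPM with 508 UMIs and Cort from 7.73 to 29.5 with 278. Cort had a near second source, Pvalb-like nuclei at 11.97 ± 4.87 CPM against 19.1 ± 7.43. Crhbp had 72.6, 50.1, 50.6 and 54.5 CPM in WT and 46.4, 66.2, 70.4 and 33.7 CPM in Chd8het, with overlap of both genotypes and index types. Its next type was Pvalb-like at 14.4 ± 1.99 CPM. Tac1, the precursor of substance P, marked Pvalb-like nuclei among cortical types, at 32.0, 26.4, 36.6 and 26.6 CPM in WT and 41.6, 30.3, 32.9 and 23.1 CPM in Chd8het. No other type found in all 8 libraries exceeded 6.62 CPM on average.

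Adcyap1, which encodes PACAP, and Grp (gastrin-releasing peptide) had their highest means in excitatory types. Adcyap1 was highest in L5 extratelencephalic (ET) neurons, 6.73 to 20.2 CPM with 495 UMIs. Endothelial nuclei had 9.68 ± 9.37 CPM on 12 UMIs, and L4/5 IT neurons 8.18 ± 2.58 CPM on 569 UMIs. Grp was highest in L5/6 near-projecting (NP) neurons, 7.93 to 20.6 CPM with 117 UMIs, with 6.43 ± 2.88 CPM in L6 corticothalamic (CT) neurons. Cartpt (the CART peptide precursor) reached only 5.05 ± 2.05 CPM in Pvalb-like nuclei, on 110 UMIs. Nts (neurotensin) and Trh (thyrotropin-releasing hormone) were too sparse for a source to be read: their highest types by the rule, mural and claustrum/Car3-like, held 12 and 2 UMIs.

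Sub-clusters of the interneurons, found without the 42 genes, differed in peptide content. These values are UMIs summed over all 8 libraries and describe clusters, with no test, and the sub-clusters were picked out after their values were seen. One Vip/Sncg-like sub-cluster of 138 nuclei held Vip at 2800 CPM, Crh at 418, Tac2 at 336, Penk at 165 and Pnoc at 114. Its Crh ranged from 100.2 to 849.5 CPM over libraries, and 63.8% of its nuclei had a Crh UMI. Another of 225 nuclei, led by Adarb2 and Frem1 and with Cnr1 among its leading genes, had Vip at 264 and Cck at 190.4 CPM. Of the 594 Crh UMIs in the Vip/Sncg-like type, the sub-cluster of 138 nuclei held 320 and that of 225 nuclei 31. Other Vip/Sncg-like sub-clusters, of 273 and 471 nuclei, held 130 and 111.

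In the Sst-like type, a sub-cluster of 56 nuclei led by Nos1, the gene of neuronal nitric oxide synthase, carried Npy at 923 CPM, Sst at 512 and Crhbp at 249.9. It was named by 5 of 7 raised Sst-type markers, none of which was among its 10 leading genes. It was also the place where the substance P receptor Tacr1 was highest of all clusters examined, at 464 CPM (329 to 612 over libraries), with a UMI in 83.9% of its nuclei. The same nuclei had 2 UMIs of the delta opioid receptor Oprd1, or 4.03 CPM, although Sst-like nuclei as a whole had 70.5 CPM. A sub-cluster of 137 nuclei had the highest Sst of the named ones, 1098 CPM, with Cort at 79.4. Among named sub-clusters Pdyn was highest in one of 52 nuclei that has it among its leading genes, at 108 CPM on 42 UMIs, and was at 64.1 CPM in one of 532 nuclei, 50.3 in one of 381 and 1.78 in one of 261. In the Lamp5-like type, 486 nuclei had Npy at 827 and the orexin receptor Hcrtr2 at 293 CPM, against 262 and 73.4 in 355 nuclei led by Ndnf.

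Of the 4 somatostatin and cortistatin receptors among the members, Sstr2 and Sstr4 had their highest mean CPM in an excitatory type, Sstr1 in OPC and Sstr3 in microglia. The last 2 rested on 47 and 40 UMIs. By UMIs per nucleus Sstr1, Sstr3 and Sstr4 had another highest type. Sstr2, the receptor whose promoter stretch is printed above, was highest in claustrum/Car3-like nuclei, 25.7 to 57.1 CPM with 83 UMIs, then in L5 IT neurons at 12.3 ± 2.72. Sstr1 had 6.15 ± 2.04 CPM in oligodendrocyte precursors (OPC) and 5.10 ± 2.75 in Sst-like nuclei, a difference within their spread, with OPC above in 7 of 8 libraries. Sstr4 stayed at 2.44 ± 0.753 CPM in its highest type, L6 CT, next to 2.41 ± 4.69 in mural nuclei. Slc39a11 overlaps Sstr2 on the opposite strand.

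The 2 receptors for vasoactive intestinal peptide had separate distributions. Vipr1 was broad in excitatory neurons. In L5 IT neurons it had 56.7, 49.4, 44.7 and 45.9 CPM in WT and 51.1, 60.7, 46.7 and 40.4 CPM in Chd8het, with overlapping genotypes. L6 IT neurons had 48.6 ± 11.0 CPM against the L5 IT mean of 49.4 ± 6.62, which is no difference beyond the spread. Vipr2 was highest in the 60 chandelier-like nuclei (18 UMIs, 0 to 88.7 CPM). Among larger types it was highest in OPC, with 25.5 ± 8.96 CPM, next to 5.78 ± 5.01 in committed oligodendrocyte precursors (COP). The PACAP receptor Adcyap1r1 was shared by many types: 66.3 ± 7.98 CPM in Sst-like nuclei, 62.9 ± 14.3 in astrocytes and 59.9 ± 7.68 in OPC, which overlap. In Sst-like nuclei it lay at 67.7, 70.1, 54.9 and 80.6 CPM in WT and at 68.7, 68.4, 58.2 and 61.9 CPM in Chd8het.

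The 3 neuropeptide Y receptors among the members, Npy1r, Npy2r and Npy5r, were highest in Vip/Sncg-like nuclei, while the peptide itself was highest in Lamp5-like nuclei. Npy1r had 83.5, 55.3, 78.5 and 54.9 CPM there in WT and 75.0, 51.3, 83.9 and 64.2 CPM in Chd8het. Replicate 1 was above replicate 2 in every group, and the genotypes overlapped. Next by CPM were mural (23.3 ± 14.8, on 23 UMIs) and VLMC nuclei (21.9 ± 6.21, on 77 UMIs), and L2/3 IT neurons had 15.8 ± 3.21 CPM on 1997 UMIs. Npy2r ranged from 17.7 to 30.5 CPM with 160 UMIs, and its next type among the 19 was at 1.07 CPM. Npy5r ranged from 12.8 to 39.3 CPM with 182 UMIs.

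Grpr, the receptor for gastrin-releasing peptide, was likewise a Vip/Sncg-like gene, at 29.9 to 78.6 CPM with 363 UMIs, whereas Sst-like nuclei had 2.07 ± 1.36 CPM. In those nuclei 21.9% had a Grpr UMI at a median depth of 5680 UMIs, against 0.06% of oligodendrocytes at 3210.5 UMIs. Its ligand gene Grp was highest in a deep excitatory type. The orexin receptor Hcrtr2 was highest in Lamp5-like nuclei, at 234, 201, 169 and 169 CPM in WT and 348, 249, 174 and 206 CPM in Chd8het. Chd8het male 1 and male 2 lay above every WT library, and the 2 Chd8het females lay within the WT range. L5/6 NP (83.8 ± 27.1 CPM), L6b (73.1 ± 21.8) and Vip/Sncg-like nuclei (72.6 ± 13.8) came next and did not differ beyond their spread. Hcrtr1 reached 4.16 ± 1.29 CPM in L6 CT neurons. The precursor of the orexins, Hcrt, is made in the hypothalamus and had a mean of at most 1.73 CPM in any type.

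The mu opioid receptor Oprm1 was highest in L6b, the deepest excitatory layer, at 559, 487, 413 and 588 CPM in WT and 540.4, 459, 345 and 616 CPM in Chd8het. L6 CT neurons had 472 ± 104 CPM against 501 ± 92.3 in L6b, a difference within the spread, and Lamp5-like nuclei came next at 215 ± 42.9. In L6b 92.2% of nuclei had an Oprm1 UMI at a median of 9817 UMIs, and 4.94% of oligodendrocytes did. Oprm1 is a long gene that overlaps Gm10945 and Ipcef1 on the opposite strand. The delta receptor Oprd1 was found in several interneuron types and was highest in Pvalb-like nuclei, at 98.9, 114, 86.1 and 109.7 CPM in WT and 109.8, 105, 105 and 88.5 CPM in Chd8het. The genotypes overlapped, and the mean was 102 ± 10.2 CPM. Chandelier-like nuclei had 96.8 ± 50.6 CPM on 49 UMIs, within the spread of the Pvalb-like level, and Sst-like nuclei had 70.5 ± 8.39 CPM. The kappa receptor Oprk1 was highest in claustrum/Car3-like nuclei, 77.4 to 203 CPM with 275 UMIs, and in L6 IT neurons it had 18.5 ± 8.14 CPM. The nociceptin receptor Oprl1 was low everywhere, with 11.9 ± 1.96 CPM in OPC.

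**Figure D3:**
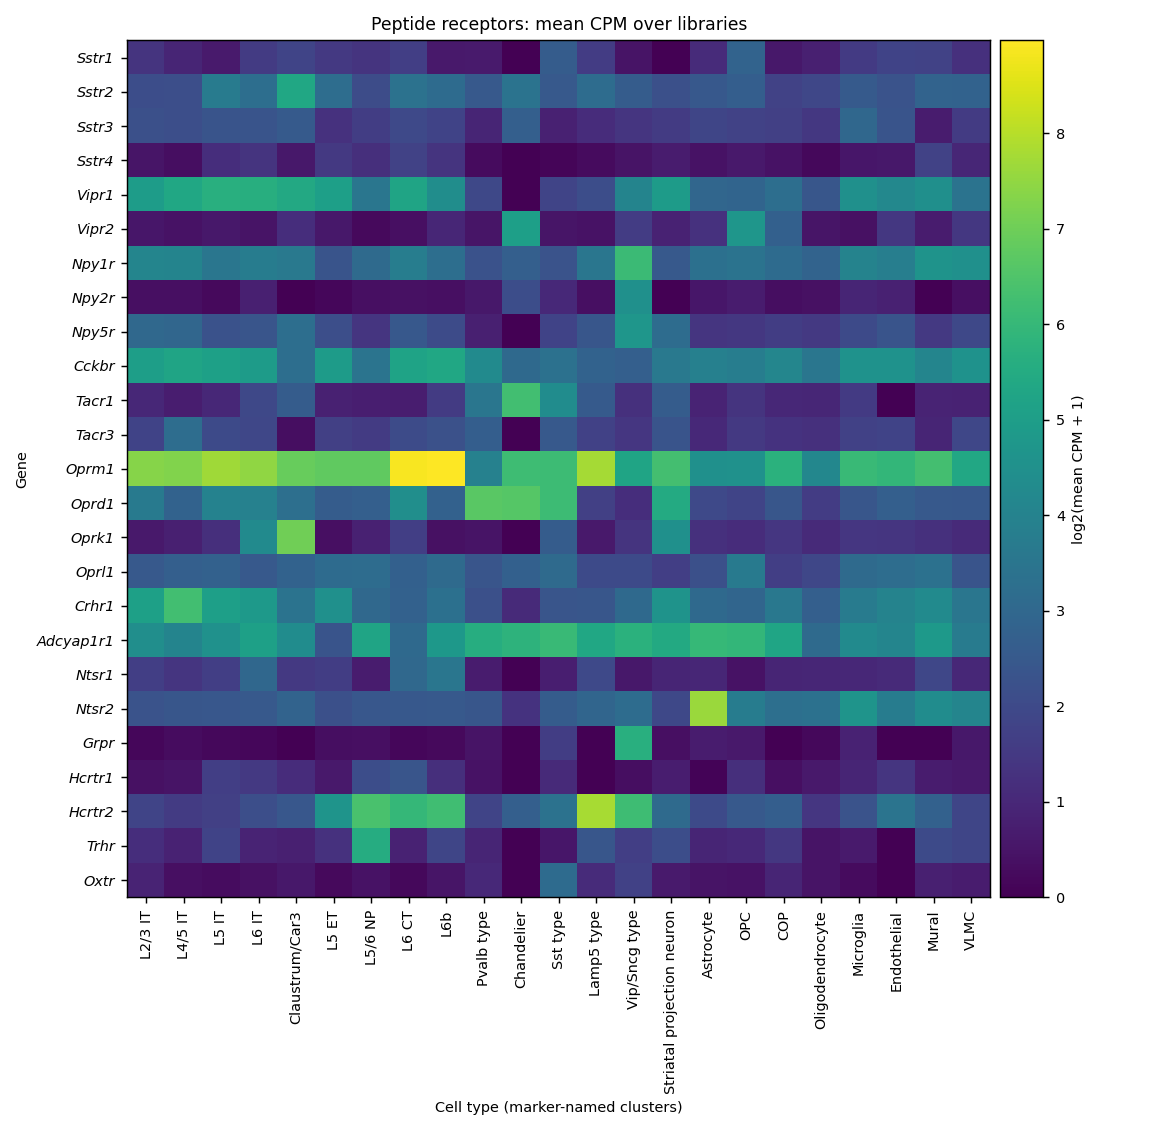
Mean CPM of the 25 receptors (rows) in the same 23 types (columns), coloured by log2(mean CPM + 1). Oprm1 is bright in L6b and L6 CT, Ntsr2 in astrocytes, Hcrtr2 in Lamp5-like nuclei, and Grpr, Npy1r, Npy2r and Npy5r in Vip/Sncg-like nuclei.

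Ntsr2, a neurotensin receptor known from glia, was highest in astrocytes, at 182, 171, 204 and 187 CPM in WT and 211, 218, 195 and 185 CPM in Chd8het. The next type, microglia, had 23.8 ± 15.6 CPM. Ntsr1 had 10.6 ± 3.29 CPM in L6b, 7.20 ± 1.98 in L6 CT and 7.06 ± 3.72 in L6 IT neurons, which do not differ beyond their spread. Crhr1, the receptor of corticotropin-releasing hormone, was highest in L4/5 IT neurons, at 71.3, 81.7, 82.9 and 70.8 CPM in WT and 61.4, 83.4, 80.5 and 70.8 CPM in Chd8het. L2/3 IT neurons, next in order, had 33.5 ± 4.30 CPM, and no L2/3 library reached an L4/5 library. Trhr, the receptor of thyrotropin-releasing hormone, had 28.1 to 61.6 CPM in L5/6 NP neurons with 460 UMIs, and its next type was at 4.23 CPM.

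Cckbr, the main cholecystokinin receptor of the brain, was spread over most excitatory types, and the order within these was not resolved. L6b had 39.5 ± 6.86 CPM and L5 ET 29.4 ± 4.99. L5/6 NP and claustrum/Car3-like nuclei were not among them. After thinning, 2.11% and 1.01% of their nuclei had a Cckbr UMI, against 6.78% in L6b, 5.84% in L5 ET and 2.12% in oligodendrocytes. Tacr1 had 75.9 ± 25.7 CPM in the chandelier-like nuclei (35 UMIs), beside the Nos1 sub-cluster above. Tacr3, the neurokinin B receptor, had 8.27 ± 3.57 CPM in L4/5 IT neurons. The oxytocin receptor Oxtr was highest in Sst-like nuclei, at 7.75 ± 1.51 CPM, and Vip/Sncg-like nuclei had 2.32 ± 1.28.

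The highest of the 19 tested types stayed the same for all but a few members under other ways of counting. It was the same in 42 of 42 with predicted doublets kept and with a stricter filter, in 37 with each nucleus typed by its own marker score, in 40 after thinning and in 36 by UMIs per nucleus. The marker score repeated the type name for 32.0% of Vip/Sncg-like nuclei, the fewest, 54.7% of Sst-like nuclei and 98.4% of oligodendrocytes, the most. It left 14455 nuclei with no type. By marker score Grp, Cckbr and Oprm1 were highest in L6 CT, Trh in L6b and Ntsr1 in L6 IT neurons. By UMIs per nucleus Cck, Sstr3, Nts, Sstr1, Sstr4 and Oprl1 had another highest type, and after thinning Cckbr and Hcrtr1 did.

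Precursor levels moved with index type. Over pairs of a member and a tested type with at least 400 UMIs, precursors and Crhbp had a higher mean in the 4 single-indexed than in the 4 dual-indexed libraries in 46 of 46 pairs (11 genes), by a median ratio of 1.97. In 35 of the 46 all single-indexed libraries lay above all dual-indexed ones, a background of 11.7% of 101158 pairs of any gene and type. Receptors went either way: 23 of 65 pairs had a higher mean in single-indexed libraries, 4 lay wholly higher and 3 wholly lower (background 9.94% lower), and the median ratio was 0.902. The pairs share libraries and, for Sst, Vip, Npy and Cck, the floor described above, so they are not independent. In source types alone the ratio was 2.14 for Sst, 2.12 for Vip, 2.08 for Npy and 2.75 for Crh. It was 1.17 for Crhbp in Sst-like nuclei, the lowest of the 46 pairs, where the index types overlapped. In microglia it was 2.77 for Sst, the highest. Index type coincides with replicate number and cannot be told apart from it. Single-indexed libraries had 4970 to 5948 UMIs per nucleus as medians and dual-indexed ones 5984 to 7467. The part of depth in these ratios was not tested.

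**Figure D4:**
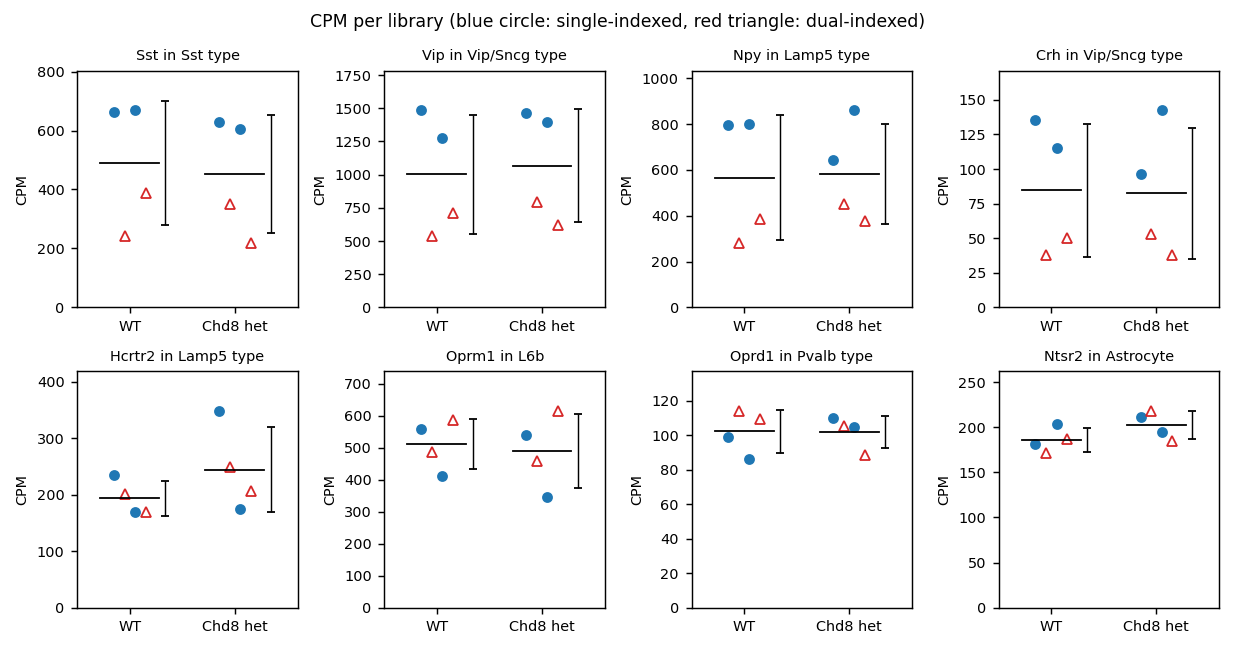
CPM per library of 4 precursors (top) and 4 receptors (bottom) in their highest type, WT against Chd8het, with group mean (line) and SD (bar, n = 4), circles for single-indexed and triangles for dual-indexed libraries. In the top row all circles lie above all triangles in both genotypes, while in the bottom row they mix, and the genotypes overlap in every panel.

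The comparison of WT with Chd8het asks whether peptide signalling genes differ in any cell type between mice labelled wild type and Chd8 heterozygous. It called no member. UMIs summed per library and type were compared by edgeR's quasi-likelihood F test, and p-values were adjusted by Benjamini-Hochberg (BH) over all genes of a type. In the 19 types 40 of the 42 members passed the count filter somewhere, which gave 271 tests of a member in a type. None had an adjusted p under 0.05 (background 0.0% of 201304 tests of all genes), and 8 had an unadjusted p under 0.05, or 2.95% (background 2.46%). Which libraries form a litter pair is not labelled, so libraries of the same sex and number were taken as pairs here and below. With a block for each such pair, again 0 were called (background 0.0447%) and 24 had an unadjusted p under 0.05, or 8.86% (background 6.26%). DESeq2 called 0 as well (background 0.00596%), with 6 at an unadjusted p under 0.05, or 2.21% (background 1.13%). The log2 changes, Chd8het minus WT, had a median of 0.05 and a median size of 0.18, with a median standard error (SE) of 0.31. On simulated counts for Sst-like nuclei the same test recovered 76 of 100 genes changed by a log2 of 1, so smaller changes can go uncalled. Those 100 genes were changed together among 10946, which loosens the BH cutoff. Where few genes change, the cutoff is stricter, so a member changed by a log2 of 1 can also go uncalled. With all libraries, Oprl1 in Pvalb-like nuclei and Oprm1 in COP, given below, had changes near that size and no call. Whether the simulation had the spread of the member tests, with their median SE of 0.31, was not tested. The 76 of 100 is therefore not a recovery rate for the members.

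In the highest type of each member the genotypes overlapped for all 42. There the log2 change was -0.15 (SE 0.33) for Sst, 0.04 (SE 0.29) for Vip, 0.03 (SE 0.28) for Npy and 0.03 (SE 0.18) for Tac1. Receptors with at least 50 UMIs in every library had 0.09 (SE 0.11) for Ntsr2, -0.04 (SE 0.11) for Oprd1, -0.07 (SE 0.12) for Crhr1 and -0.09 (SE 0.17) for Oprm1, whereas sparser receptors had errors as large as 0.33 for Npy5r and 0.37 for Ntsr1. Hcrtr2 in Lamp5-like nuclei had the smallest unadjusted p of these, with 193 ± 31.1 CPM in WT and 244 ± 75.8 in Chd8het, a log2 change of 0.30 (SE 0.14, p 0.0526, adjusted p 0.999), higher in Chd8het in 4 of 4 pairs. Without Chd8het male 1, its highest library, the log2 change was 0.16 (edgeR p 0.284, adjusted p 1).

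Grp in L2/3 IT neurons had 1.33, 1.49, 1.81 and 1.94 CPM in WT and 2.75, 2.33, 2.996 and 3.08 CPM in Chd8het. Every Chd8het library lay above every WT library, on 279 UMIs in all. The log2 change was 0.74 (SE 0.18, edgeR p 0.00326, adjusted p 1, and adjusted p 0.425 with the pair block), and the difference in CPM, Chd8het minus WT, was 1.30 among the single-indexed and 0.991 among the dual-indexed libraries. A Grp UMI was found in 2.16% of L2/3 IT nuclei and 0.70% of oligodendrocytes, and after thinning in 0.52% and 0.56%. Microglia had 3.66 CPM and oligodendrocytes 2.02 CPM of Grp. The part of free RNA in the difference between genotypes was not tested. AC152076.4 overlaps Grp on the opposite strand.

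Vipr1 in L5/6 NP neurons had 5.71, 7.57, 5.81 and 9.41 CPM in WT and 11.4, 14.6, 15.9 and 13.3 CPM in Chd8het. The groups did not overlap, on 108 UMIs, and the log2 change was 0.88 (SE 0.29, edgeR p 0.0096, adjusted p 0.999). With each nucleus typed by its own marker score it was 0.12. Oprk1 in L6 IT neurons had 12.9, 8.45, 22.3 and 14.1 CPM in WT and 19.4, 11.7, 29.1 and 30.2 CPM in Chd8het. The groups overlapped while all 4 pairs were higher in Chd8het, and the log2 change was 0.64 (SE 0.22, edgeR p 0.018, adjusted p 1). Ntsr2 in oligodendrocytes, 0.90 on the log2 scale (SE 0.35, p 0.0239, adjusted p 0.999), rested on 116 UMIs. Oligodendrocytes held 0.0325 Ntsr2 UMIs per nucleus, next to 0.0371 in microglia and 0.541 in astrocytes, and the part of free RNA in that difference was not tested.

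In Pvalb-like nuclei 3 members had lower means in Chd8het with an unadjusted p under 0.05 and no call, out of 19 tested there (background 2.15%). Pnoc had 8.28, 7.67, 11.5 and 9.86 CPM in WT and 5.25, 6.87, 7.58 and 7.22 CPM in Chd8het, a log2 change of -0.50 (SE 0.22, p 0.0398, adjusted p 1), lower in 4 of 4 pairs. Tacr3 had 5.64, 6.39, 6.65 and 9.26 CPM in WT and 4.20, 3.64, 2.53 and 5.42 CPM in Chd8het (log2 change -0.85, SE 0.31, p 0.0183, adjusted p 1). Neither gene overlapped between genotypes in CPM. With each nucleus typed by its own marker score the log2 change was -0.17 for Pnoc (p 0.524) and -0.53 for Tacr3 (p 0.159). Oprl1 went from 5.48 ± 1.15 to 2.92 ± 1.38 CPM (log2 change -0.95, SE 0.32, p 0.0115, adjusted p 1), with overlap. Vip in the same nuclei, at 4.06 to 13.4 CPM and so near its floor in other types, completed the 10 smallest (0.74, SE 0.35, p 0.0582). It was 0.35 (p 0.319) with each nucleus typed by its own marker score. After scaling of libraries, 3 of the 271 tests had genotypes that did not overlap, or 1.11% (background 1.99%).

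**Figure D5:**
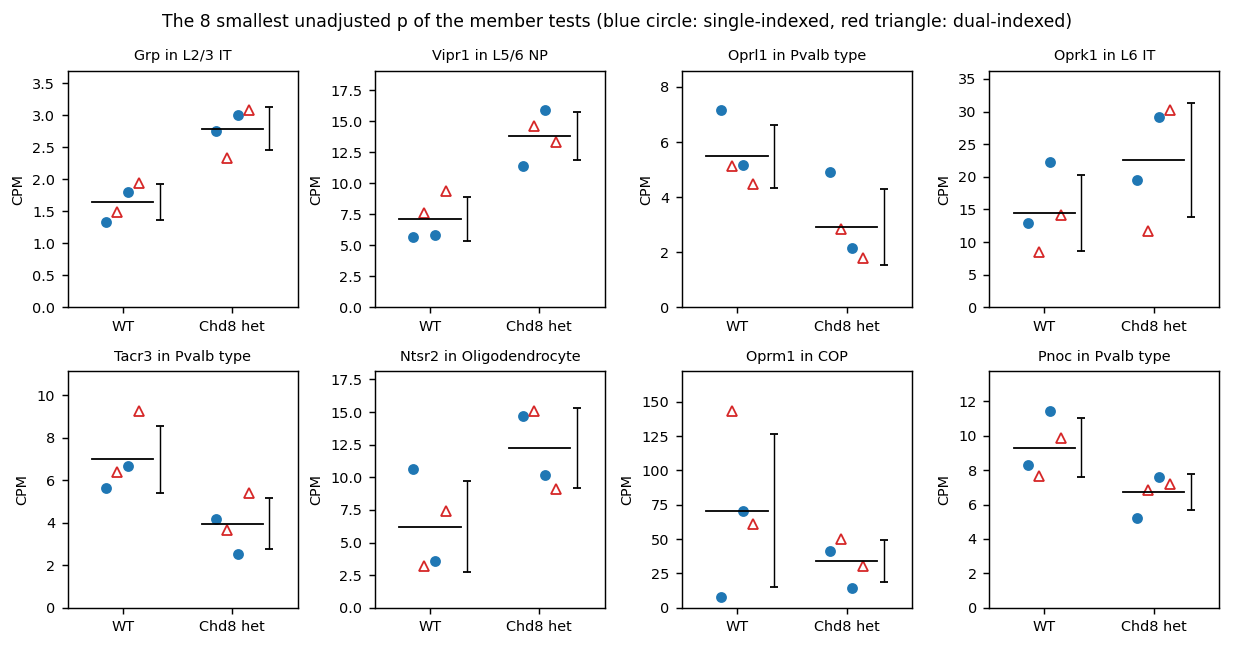
CPM per library for the 8 member tests with the smallest unadjusted p, WT against Chd8het, with group mean (line) and SD (bar, n = 4), circles for single-indexed and triangles for dual-indexed libraries. Grp and Vipr1, higher in Chd8het, and Tacr3 and Pnoc, lower in Chd8het by a narrow gap, are separated by genotype at levels under 16 CPM. Oprm1 in COP spreads from 7.90 to 143 CPM within WT.

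Oprm1 in COP was the only member test called in any setting. It had 7.90, 143, 70.4 and 61.3 CPM in WT and 41.1, 50.3, 14.6 and 30.1 CPM in Chd8het, on 166 UMIs. With all libraries the log2 change was -1.14 (SE 0.49, p 0.0354, adjusted p 0.999), and 3 of 4 pairs were lower in Chd8het. Without WT male 1, the lowest library, it was -1.60 with an adjusted p of 0.0262, so the call rests on leaving out that library (background 0.00241%). Without WT male 2, the highest library, it was -0.51 (p 0.347), with predicted doublets kept -0.72 and with each nucleus typed by its own marker score -0.77. COP had 744 nuclei in all, and Oprm1 is abundant in deep neurons. The part of RNA from those neurons in these counts was not tested.

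In edgeR, 0 of 271 member tests had a sex by genotype term with an adjusted p under 0.05 (BH, background 0.0%), and 0 had one with an unadjusted p under 0.05 (background 1.41%). The shares of the 5 GABAergic types among their sum, which bear on how much of each peptide source was sampled, had no p under 0.05 by an exact permutation test (two-sided, 4 against 4, smallest possible p 0.0286). Lamp5-like nuclei had WT shares of 14.3 ± 0.716% and Chd8het shares of 13.0 ± 1.00% (exact permutation p 0.114, BH-adjusted over 5 types 0.571), lower in 4 of 4 pairs. The difference was -1.27 percentage points, -0.707 (p 0.543) with each nucleus typed by its own marker score and -0.812 (p 0.229) without Chd8het male 1. As a share of all kept nuclei it was -0.177 (p 0.0286, unadjusted); all these are exact permutation p-values. Vip/Sncg-like nuclei made up 16.9 ± 1.08% and 18.4 ± 1.97% (exact permutation p 0.286, adjusted 0.571), higher in 4 of 4 pairs. The difference of 1.51 percentage points was 0.544 without Chd8het male 2 (exact permutation p 0.571), and 0.0311 points as a share of all kept nuclei (exact permutation p 0.771). Sst-like nuclei were at 28.0 ± 1.14% and 27.2 ± 0.811% (exact permutation p 0.343, adjusted 0.571). The difference of -0.775 percentage points was -0.286 without WT female 2 (exact permutation p 0.686), -0.459 without Chd8het female 2 (exact permutation p 0.686) and -1.22 without WT female 1 (exact permutation p 0.171). As a share of all kept nuclei the Sst-like difference was -0.211 points (exact permutation p 0.0857, unadjusted).

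Genes that make and release peptides, and other ligands and receptors, were read from 3 lists beside the members. The lists were chosen with earlier results of these data known. Tests within a list repeat genes over types of the same libraries and are not independent. The shares below therefore cannot show an excess over background. Of 15 genes of peptide processing and dense-core release, all were tested, in 273 tests. None was called by edgeR with BH, and 10 had an unadjusted p under 0.05, or 3.66% (background 2.46%), 9 of them higher in Chd8het. With the pair block 25 did, or 9.16% (background 6.26%). Without the block the list had a median log2 change of 0.05. Pcsk2, a convertase that cuts precursors, had the smallest p: in VLMC it went from 264 ± 105 to 416 ± 74.6 CPM (log2 change 0.71, SE 0.24, edgeR p 0.0094, adjusted p 0.999). Its genotypes overlapped, and 3 of 4 pairs were higher in Chd8het. Scg3, a granin, followed in microglia on 348 UMIs (0.69, SE 0.25, edgeR p 0.0139), also with overlap. Nuclei of both types held few UMIs, and the part of free RNA in these 2 differences was not tested. Of 24 other precursors 8 were tested, in 41 tests with 0 calls and 3 at an unadjusted p under 0.05, or 7.32% (background 2.46%), and again 3 with the pair block. The smallest p was that of Npff in Pvalb-like nuclei (0.73, SE 0.29, p 0.0292), followed by Npff in L5 IT neurons (0.57, SE 0.24, p 0.0393). Of 34 other receptors 16 were tested, in 87 tests with 0 calls and 9 at an unadjusted p under 0.05, or 10.3% (background 2.46%), 5 higher and 4 lower. With the pair block 16 did, or 18.4% (background 6.26%), with 0 calls. The smallest were Rxfp2 in L5 IT neurons (-0.45, SE 0.15, p 0.0133) and Ednra in L5 ET neurons (0.92, SE 0.31, p 0.0137).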

How the data were processed

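Nuclei of frozen cortex were sequenced with the 10x Genomics 3′ kit, per the labels' protocols. The authors deposited whole-number UMI counts per barcode and gene. STAR 2.7.9a, STARsolo, Cell Ranger and mm10 are named in the submitters' processing notes, with no roles; whether counting used strand or introns is not given in the sources used here. Gene positions come from the GENCODE M21 annotation (GRCm38), which held 32235 of the 32285 gene identifiers. Each library is 1 sample of a litter- and sex-matched pair, per the labels' protocols; which libraries form a pair is not labelled.

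Nuclei with at least 500 genes and at most 5% mitochondrial UMIs were kept (82168 of 97772), and 4278 doublets predicted by Scrublet (scanpy) in each library were removed. Clusters (Leiden, 57, and 38 within the GABAergic nuclei) were named when at least 3 listed markers were raised at least 2-fold; clusters stayed unnamed with over 30% doublets, with more leading genes from another type's markers, with mitochondrial genes leading, or with no marker among the 10 leading genes (for sub-clusters, only where UMIs were also few). Vip and Sncg types were merged after the clusters were seen. UMIs were summed per library and type. The tests were edgeR 4.0.16 (quasi-likelihood, sex and genotype, TMM scaling, minimum count 10), checked on simulated data, and DESeq2 1.42.0 as an alternative, with R 4.3.3. Of same-sex, same-number libraries every pair correlated in all nuclei (r 0.415 to 0.624), so the numbers were taken as pairs. Libraries of the same index type but other sex correlated at 0.302 to 0.414. In endothelial nuclei the taken pairs correlated at 0.029 to 0.215 and those other libraries at 0.104 to 0.286. A taken pair also shares sex and index type, so these correlations cannot show that it shares a litter.

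Each member is described in the type of its highest mean CPM over all 8 libraries, by library where each held at least 50 UMIs. Between genotypes it is named if called, if among the 10 smallest p, or if genotypes did not overlap in its highest type. The members and lists were chosen with earlier results of these data known. Intervals for counting error are not given; the spread over libraries is given instead. Raw reads were not used here.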

Additional observations from a re-analysis of the deposited data

How the results depend on the processing

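Of 271 member tests 0 were called in the analysis as reported, and leaving out single libraries gave 0 to 1. The count at an unadjusted p under 0.05 was 8. It was 24 with the replicate block, where the share over all genes went from 2.46% to 6.26%, and 20 with index type added (all genes 5.76%). It was 16 of 307 tests with each nucleus typed by its own marker score (all genes 2.58%) and 34 of 786 with no count filter (all genes 2.76%). Leaving out single libraries gave 6 to 23: 23 without Chd8het female 2 (of 293, all genes 3.91%), 15 without WT female 1 (of 286, 2.69%) or Chd8het male 2 (of 289, 2.44%) and 13 without WT male 1 (of 292, 2.66%). The replicate block changed no call of a member. With the pairs as blocks the Lamp5-like share had p 0.125, the smallest that 4 pairs allow. Grp in L2/3 IT kept its direction in all 17 alternatives (0.68 to 0.95). So did every other test named for a small p, such as Vipr1 in L5/6 NP (0.12 to 1.02) and Tacr3 in Pvalb-like nuclei (-1.05 to -0.53). These were picked for a small p in the same libraries, so a kept direction is not a separate test of them. Sst, Vip and Npy in their highest types changed sign in 3, 5 and 5 of 17, so no direction can be given. Low counts limit Nts, Trh, Sstr1, Sstr3 and Sstr4, and the even floor across types limits readings of Sst, Vip, Npy and Cck outside their source types.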

Other observations

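A GABAergic cluster of 424 nuclei was left unnamed, because its nuclei held 0.17 of their library's median UMIs and none of its leading genes was a listed marker. It was led by Sst and Npy, and pooled over libraries it held Sst at 2346 CPM, Npy at 1363, Vip at 446 and Cck at 876. Only 25.2% of its nuclei had an Sst UMI. WT female 1 contributed 116 and Chd8het female 1 111 of its nuclei, and WT male 2 contributed 6.

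Another unnamed GABAergic cluster, of 140 nuclei, held Penk at 152 and Crh at 108 CPM, with Penk UMIs in 39.3% of nuclei. The unnamed cluster that came mostly from Chd8het male 2 had Trhr at 25.0 CPM on 221 UMIs and Oprm1 at 130.4 CPM. No test was made on any of these clusters.

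Striatal-like nuclei made up 0 to 1.24% of a library. They held 352 Penk and 137 Tac1 UMIs. In all nuclei summed, Penk was at 5.54 ± 1.95 CPM in WT and 5.82 ± 0.491 in Chd8het, and without the striatal-like nuclei at 4.84 ± 1.74 and 5.38 ± 0.351 (an alternative added after the data were seen). Summed over all nuclei, 2 of 42 members had an unadjusted p under 0.05 (background 1.39% of 21225 genes) and 0 were called. These were Oprk1, with a log2 change of 0.49 on 1689 UMIs (SE 0.18, edgeR p 0.0298, adjusted p 1), which was 0.57 (p 0.00981) without the striatal-like nuclei, and Trh, with 0.93 on 137 UMIs (SE 0.31, edgeR p 0.0172, adjusted p 1).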
